A study of Mus musculus with 12 samples.

Results

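The Bcl2 family sets the threshold at which a cell's mitochondria release the factors that start apoptosis. Transcripts of 10 regulators of this family were followed in whole mouse liver: the survival genes Bcl2, Bcl2l1 and Mcl1, the pore-forming effectors Bax and Bak1, and the BH3-only genes Bid, Bcl2l11, Bmf, Pmaip1 and Bbc3. The genes were chosen by name, from what the family is known to do, but with earlier results of these data known. Each was read from the transcript cluster (the array's probe set for a gene) that names that gene alone. The cluster of highest mean over all arrays was taken. Of the 10 genes, 9 had such a cluster, with 1 cluster each, among 19938 genes with a cluster in all. Bax was named by no cluster in the annotation used and was not analysed here. All 9 measured genes lay above the 40th percentile of the array in all 12 arrays and were among the 13977 genes tested.

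Survival proteins of the family hold the effectors BAX and BAK in check at the outer mitochondrial membrane. BH3-only proteins report stress by binding the survival proteins or by activating the effectors directly, and oligomers of the effectors let cytochrome c escape. In the liver, hepatocytes depend on MCL1 and on BCL-XL, the product of Bcl2l1, for their survival, and death receptor signals reach the mitochondria through cleavage of BID. STAT3 is a transcription factor known to induce survival genes of this family in several cell types.

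Whole livers of mice aged 2 weeks were measured on 12 Affymetrix arrays, 3 arrays (A, B and C) for each of 4 genotypes. The genotypes were Stat3Δhc Mdr2-/-, Stat3Fl/FlMdr2-/-, Stat3Δhc and Stat3Fl/Fl. Stat3Fl/Fl liver carries floxed Stat3 and is the control, Stat3Δhc liver has Stat3 deleted, and Mdr2-/- liver lacks the canalicular phospholipid transporter encoded by Abcb4, a model of sclerosing cholangitis. All 4 genotypes thus carry a modified Stat3 allele, and none is wild type. The labels name no Cre line or promoter and do not say whether each array came from a separate animal, so p-values measure the spread between these arrays. One label field, the source name, exchanges the genotypes Stat3Δhc Mdr2-/- and Stat3Fl/FlMdr2-/- against the title, description and genotype fields. Arrays were grouped by title. The study asked which molecular pathways accompany bile acid injury in Stat3-deficient Mdr2-/- mice.

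Values are log2 signals, and a difference of 1 is a doubling. A change was called where the adjusted p of limma (Benjamini-Hochberg over all 13977 genes) was under 0.05. Changes are given with their standard error (SE). Stat3 lay at 7.69 to 8.12 in the 6 arrays labelled Stat3Δhc, with or without Mdr2-/-, and at 9.19 to 9.54 in the 6 floxed arrays. Abcb4 lay at 8.87 to 9.36 in the 6 Mdr2-/- arrays and at 9.999 to 10.28 in the 6 others. Array medians lay between 6.01 and 6.14, arrays of a genotype correlated at 0.98 to 0.991, and the median SE of a change was 0.11. The 8 hepatocyte marker genes averaged 12.4 to 13.0 in each array.

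Some arrays stood apart in transcripts of sex and of other tissues. The 3 Stat3Fl/FlMdr2-/- arrays and array A of Stat3Δhc Mdr2-/- had high Xist and low Y-linked transcripts, and the other 8 arrays had the opposite pattern. In floxed liver the Mdr2 genotype and this pattern therefore cannot be told apart. The Stat3 comparison on the Mdr2-/- background is uneven in it too. There only array A of Stat3Δhc Mdr2-/- shares the pattern of the 3 Stat3Fl/FlMdr2-/- arrays. Stat3-deleted liver can be compared within the Y-linked pattern, with arrays B and C of Stat3Δhc Mdr2-/- against 3 Stat3Δhc arrays. The 10 skeletal muscle markers, all of which fell in both comparisons of Mdr2 genotypes, had summed log2 levels of 56.4 to 59.0 in Stat3Δhc Mdr2-/- arrays and 54.7 to 56.5 in Stat3Fl/FlMdr2-/- arrays. The same sums were 87.4 to 91.8 in Stat3Δhc arrays and 87.4 to 94.8 in Stat3Fl/Fl arrays. The sums of 7 exocrine pancreas markers were 38.7 to 40.8, 38.3 to 39.5, 41.5 to 74.1 and 39.4 to 66.3 in Stat3Δhc Mdr2-/-, Stat3Fl/FlMdr2-/-, Stat3Δhc and Stat3Fl/Fl arrays, in that order. None of these 17 markers lay below the 40th percentile in every array.

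Markers of other cell types moved with Mdr2 loss as well. Their counts stand against 6.9% of all genes that rose and 10.5% that fell in Stat3-deleted liver. In floxed liver these shares were 7.12% and 5.65%. Of 3 erythroid markers 3 fell in Stat3-deleted liver and 2 in floxed liver (Alas2 by 0.80 and 1.16), and the list's summed levels were 21.0 to 21.6, 20.8 to 21.8, 22.7 to 23.5 and 23.3 to 24.4 in the same order of genotypes. Of 8 endothelial markers 4 fell in Stat3-deleted liver (Kdr, Tek, Egfl7 and Lyve1) and 1 rose in floxed liver (Stab2), with sums of 68.3 to 70.1, 71.3 to 72.5, 71.6 to 72.3 and 71.5 to 73.0. Of 8 stellate cell markers 3 rose (Col1a1, Col3a1 and Pdgfrb) and 4 fell (Des, Lrat, Rgs5 and Reln) in Stat3-deleted liver. Des was the single call in floxed liver. The sums, Des included, were 72.3 to 73.3, 74.9 to 75.4, 73.9 to 75.6 and 75.6 to 77.3. Des fell by 1.61 in Stat3-deleted and 1.60 in floxed liver, comparisons in which all 10 skeletal muscle markers fell too. The part of muscle RNA in the fall of Des was not tested. Of the 8 hepatocyte markers Cyp2e1 and Ttr fell in Stat3-deleted liver and Tdo2 in floxed liver. Bile duct, macrophage, neutrophil and proliferation markers had 0 to 2 calls a list in either comparison. The part of all these lists in the results for the Bcl2 family, the rises of Mcl1 and Bcl2l1 included, was not tested.

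The start of Mcl1 used here lies on chromosome 3, and Bcl2l11 has 2 starts on chromosome 2 (RefSeq, GRCm38.p6). The 250 bases before a start were searched on both strands for the STAT motif TTCNNNGAA, the CREB motif TGACGTCA, the AP-1 motif TGANTCA, the FOXO motif GTAAACA and the ETS motif CCGGAAG. None of these motifs lies within another, although STAT and ETS matches can share letters. The motifs were picked with the results below in view. They are shown for Mcl1, the gene that rose with Mdr2 loss in both Stat3 genotypes, and for Bcl2l11, with FOXO and ETS matches in capitals. The Mcl1 window is chr3:95658471-95658720 on the plus strand, and the Bcl2l11 window is chr2:128125788-128126037 on the plus strand. RefSeq gives the Mcl1 gene as 95656944 to 95663179, so its window lies inside that span.
Mcl1: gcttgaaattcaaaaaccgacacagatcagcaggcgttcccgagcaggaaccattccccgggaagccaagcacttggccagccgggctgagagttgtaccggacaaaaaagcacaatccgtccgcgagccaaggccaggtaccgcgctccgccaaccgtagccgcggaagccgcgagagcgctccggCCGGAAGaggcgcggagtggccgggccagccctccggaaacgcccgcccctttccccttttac
Bcl2l11: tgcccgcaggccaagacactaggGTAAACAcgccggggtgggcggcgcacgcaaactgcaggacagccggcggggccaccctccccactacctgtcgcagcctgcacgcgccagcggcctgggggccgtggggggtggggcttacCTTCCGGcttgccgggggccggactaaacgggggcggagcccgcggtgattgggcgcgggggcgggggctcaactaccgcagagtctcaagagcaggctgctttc
The ETS letters of Mcl1 begin 63 bases before the start. In Bcl2l11 the FOXO letters begin 227 bases and the reversed ETS letters (CTTCCGG) 105 bases before the start. Over 16 windows of 9 members, Bax included, the STAT motif matched 0, the CREB motif 0, the AP-1 motif 0, the FOXO motif 2 (Bcl2l11 and Bbc3) and the ETS motif 2 (Mcl1 and Bcl2l11). Over 32851 windows of the same length in the table, the shares were 7.02%, 1.55%, 6.75%, 3.17% and 6.91%, in the same order. A match is a description of the letters and not a bound site, and the 3 Bcl2l1 windows held none of these motifs.

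Mcl1 rose with Mdr2 loss in both Stat3 genotypes and Bcl2l1 in floxed liver, while none of the 9 measured members passed for Stat3 deletion. Mcl1 rose 1.33-fold in Stat3-deleted liver and 1.51-fold in floxed liver. Bcl2l1 rose 1.27-fold in floxed liver and missed the threshold in Stat3-deleted liver. In floxed liver the Mdr2 genotype and the Xist pattern cannot be told apart. With that pattern as a covariate neither floxed rise passed the test, and the change of Bcl2l1 was 0.05 (adjusted p = 0.913 by limma). With Mdr2 loss 1 of 9 members was called in Stat3-deleted liver, where 17.4% of all genes tested were called, and 2 of 9 were called in floxed liver, where 12.8% were. With 9 members, counts this small do not set the family apart from all genes. With Stat3 deletion 0 of 9 were called on the Mdr2-/- background, against 5.77% of all genes, and 0 of 9 without it, against 2.58%. At an unadjusted p under 0.05 in limma these counts were 0 and 1 (Bmf), against 28% and 16.4% of all genes.

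**Figure D1:**
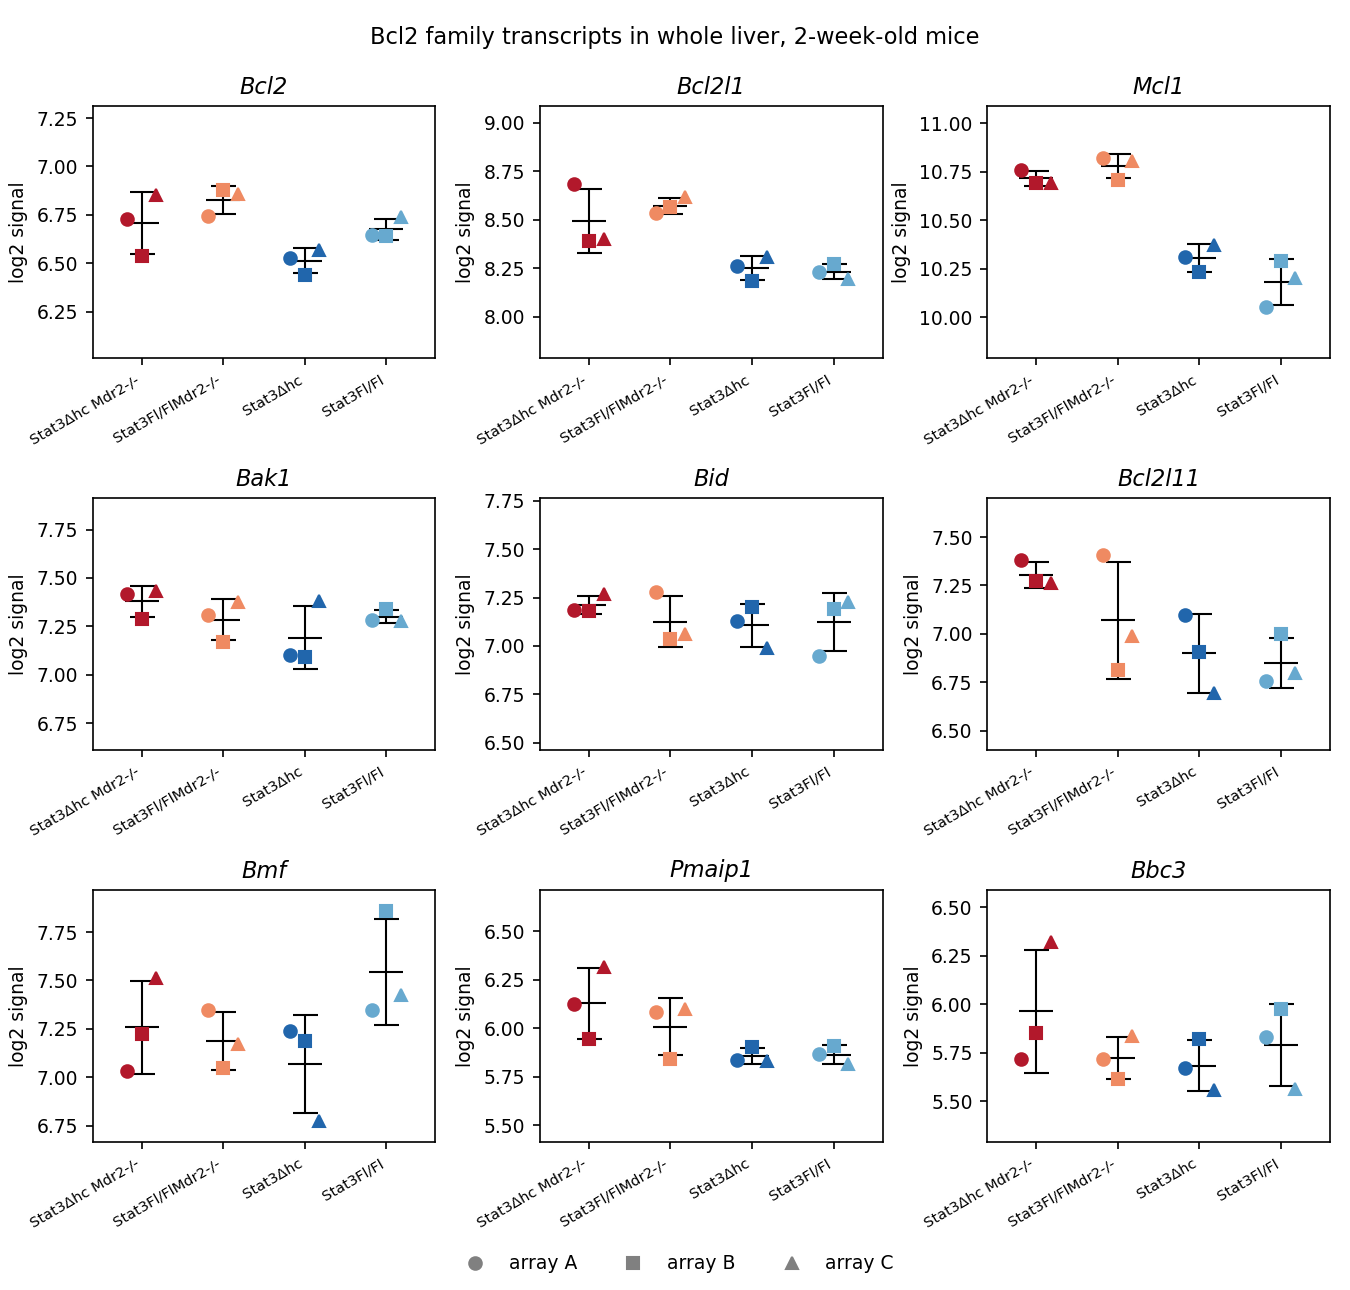
Log2 signal of the 9 measured Bcl2 family genes in each array (circle, square and triangle for arrays A, B and C) with the mean and SD of 3 arrays per genotype. Each panel spans the same range of log2 units, not starting at 0. The 6 Mdr2-/- arrays of Mcl1 and of Bcl2l1 lie above the 6 others, whereas the genotypes of Bak1 and Bid overlap.

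Mcl1 encodes a short-lived survival protein that binds BAK and most BH3-only proteins. Its signal was 10.76, 10.70 and 10.69 in Stat3Δhc Mdr2-/- liver, 10.82, 10.71 and 10.81 in Stat3Fl/FlMdr2-/- liver, 10.31, 10.23 and 10.37 in Stat3Δhc liver and 10.06, 10.29 and 10.20 in Stat3Fl/Fl liver. All 6 Mdr2-/- arrays lay above all 6 others, and the genotypes of Stat3 overlapped at either Mdr2 genotype. With Mdr2 loss Mcl1 rose by 0.41 (SE 0.08, adjusted p = 0.0051 by limma) in Stat3-deleted liver and by 0.60 (SE 0.08, adjusted p = 0.000628) in floxed liver. Both calls held in each of the 12 fits that left out an array. Within the Y-linked pattern, Stat3-deleted liver kept a rise of 0.39 (adjusted p = 0.0285). With the pattern of Xist and Y-linked transcripts as a covariate the change was 0.39 in Stat3-deleted liver (adjusted p = 0.0176) and 0.53 in floxed liver, which no longer passed the test (SE 0.15, adjusted p = 0.182). In that fit the covariate rests on array A of Stat3Δhc Mdr2-/- against arrays B and C. For Mdr2 loss in Stat3-deleted liver, changes with the covariate and within the Y-linked pattern are therefore the same estimates, not separate checks. The rise in Stat3-deleted liver minus that in floxed liver was -0.19 (95% interval -0.44 to 0.06, adjusted p = 0.393), so a difference between the rises was not detectable with 3 arrays per genotype.

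Bcl2l1 encodes BCL-XL, a survival protein of hepatocytes and many other cells, and a shorter splice form that promotes death. The cluster gives 1 value per gene and does not tell the forms apart. The signal was 8.68, 8.39 and 8.40 in Stat3Δhc Mdr2-/- liver, 8.53, 8.57 and 8.62 in Stat3Fl/FlMdr2-/- liver, 8.26, 8.19 and 8.31 in Stat3Δhc liver and 8.23, 8.27 and 8.19 in Stat3Fl/Fl liver. As for Mcl1, the 6 Mdr2-/- arrays lay above the 6 others, with array A of Stat3Δhc Mdr2-/-, which has the Xist pattern, highest of all. The rise in floxed liver was 0.34 (SE 0.09, adjusted p = 0.0235 by limma). In Stat3-deleted liver the change was 0.24 (SE 0.09, adjusted p = 0.0775) and missed the threshold. These calls were less stable than those of Mcl1. The floxed call was lost without array A, B or C of Stat3Fl/Fl (adjusted p = 0.0603, 0.0553 and 0.0823) and without array B or C of Stat3Fl/FlMdr2-/- (0.0549 and 0.0834). With the covariate the floxed change was 0.05 (SE 0.13, adjusted p = 0.913). Within the Y-linked pattern the Stat3-deleted change was 0.15 (adjusted p = 0.234). After cyclic loess between arrays, Bcl2l1 passed the test in Stat3-deleted liver too (0.33, adjusted p = 0.0113).

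Bcl2, the founding survival gene, is most prominent in lymphocytes. It gave 6.73, 6.54 and 6.85 in Stat3Δhc Mdr2-/- liver, 6.74, 6.88 and 6.86 in Stat3Fl/FlMdr2-/- liver, 6.53, 6.44 and 6.57 in Stat3Δhc liver and 6.65, 6.64 and 6.74 in Stat3Fl/Fl liver. The 3 Stat3Δhc arrays were lowest apart from array B of Stat3Δhc Mdr2-/-, which lay among them. The change with Mdr2 loss was 0.19 in Stat3-deleted liver (SE 0.09, adjusted p = 0.146) and 0.15 in floxed liver (SE 0.09, adjusted p = 0.327), and neither passed. With Stat3 deletion Bcl2 changed by -0.12 on the Mdr2-/- background (adjusted p = 0.395) and by -0.16 without it (adjusted p = 0.411). Of 6 lymphocyte markers tested, 3 (Nkg7, Cd3e and Ighm) rose with Mdr2 loss in Stat3-deleted liver and 0 in floxed liver, against 6.9% and 7.12% of all genes. Within the Y-linked pattern and with the covariate, 2 of them (Nkg7 and Cd3e) rose. The summed log2 level of the 9 measured was 51.1 to 53.4 in Stat3Δhc Mdr2-/- arrays, 52.3 to 52.8 in Stat3Fl/FlMdr2-/- arrays, 50.3 to 51.1 in Stat3Δhc arrays and 52.1 to 54.0 in Stat3Fl/Fl arrays. Cd3d lay below the 40th percentile in all arrays. The part of lymphocytes in the Bcl2 signal was not tested. In whole liver, fewer cells of a type and less RNA per cell cannot be told apart.

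Bak1 encodes BAK, an effector that sits in the outer mitochondrial membrane and is held by MCL1 and BCL-XL. It gave 7.42, 7.29 and 7.43 in Stat3Δhc Mdr2-/- liver, 7.31, 7.17 and 7.38 in Stat3Fl/FlMdr2-/- liver, 7.10, 7.09 and 7.38 in Stat3Δhc liver and 7.29, 7.34 and 7.28 in Stat3Fl/Fl liver. The 4 genotypes overlapped, and array C of Stat3Δhc lay well above arrays A and B. With Mdr2 loss the change was 0.19 in Stat3-deleted liver (95% interval -0.02 to 0.39, adjusted p = 0.177) and -0.01 in floxed liver (95% interval -0.22 to 0.19, adjusted p = 0.942). With Stat3 deletion it was 0.09 on the Mdr2-/- background (95% interval -0.11 to 0.30) and -0.11 without it (95% interval -0.31 to 0.10).

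Bid, whose product is cut by caspase-8 and carries death receptor signals to the mitochondria, varied least among the 9 genes, over 0.33 log2 units in the 12 arrays. It gave 7.18, 7.18 and 7.27 in Stat3Δhc Mdr2-/- liver, 7.28, 7.04 and 7.06 in Stat3Fl/FlMdr2-/- liver, 7.13, 7.20 and 6.99 in Stat3Δhc liver and 6.95, 7.19 and 7.22 in Stat3Fl/Fl liver. Neighbouring genotypes in the order of means overlapped throughout. Its change with Mdr2 loss was 0.10 in Stat3-deleted liver (95% interval -0.11 to 0.32, adjusted p = 0.461), and in floxed liver the 95% interval ran from -0.21 to 0.22 (adjusted p = 0.986).

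Bcl2l11 encodes BIM, a BH3-only protein that binds all survival members and is induced by FOXO factors. Its signal was 7.38, 7.27 and 7.26 in Stat3Δhc Mdr2-/- liver, 7.41, 6.81 and 6.99 in Stat3Fl/FlMdr2-/- liver, 7.10, 6.91 and 6.69 in Stat3Δhc liver and 6.76, 6.997 and 6.80 in Stat3Fl/Fl liver. The Stat3Δhc Mdr2-/- arrays lay above both genotypes without the Mdr2 knockout. Stat3Fl/FlMdr2-/- liver was spread widely, with array A high and array B low. The change with Mdr2 loss was 0.41 in Stat3-deleted liver (SE 0.14, 95% interval 0.10 to 0.71, adjusted p = 0.0682 by limma) and 0.22 in floxed liver (SE 0.14, adjusted p = 0.367), so neither was called. Without array A of Stat3Fl/FlMdr2-/-, which is in neither group of the first comparison but enters the shared estimate of spread, that change of 0.41 passed the test (adjusted p = 0.0293). That was the 1 pass among 12 fits that left out an array, in which the adjusted p reached 0.252. Within the Y-linked pattern the change was 0.37 and did not pass (adjusted p = 0.0739).

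Bmf encodes a BH3-only protein that is kept at the cytoskeleton by dynein light chain. It gave 7.03, 7.23 and 7.51 in Stat3Δhc Mdr2-/- liver, 7.35, 7.05 and 7.17 in Stat3Fl/FlMdr2-/- liver, 7.24, 7.19 and 6.78 in Stat3Δhc liver and 7.35, 7.86 and 7.42 in Stat3Fl/Fl liver. The mean was highest in Stat3Fl/Fl liver, but array C of Stat3Δhc Mdr2-/- lay above 2 of its 3 arrays, and array A of Stat3Fl/FlMdr2-/- equalled its lowest array to 2 decimals. Array C of Stat3Δhc was the lowest of all 12. Bmf was the member with the largest change under Stat3 deletion without the Mdr2 knockout, -0.47 (SE 0.17, 95% interval -0.83 to -0.12, adjusted p = 0.157 by limma), which was not called. With the knockout the Stat3 change was 0.07 (95% interval -0.29 to 0.43, adjusted p = 0.801). The difference of these changes was 0.54 (SE 0.23, adjusted p = 0.276). For that difference 0 of 9 members passed in limma, against 0.0715% of all genes, and 1 (Bmf) had an unadjusted p under 0.05, against 16.9% of all genes. With Mdr2 loss Bmf changed by 0.19 in Stat3-deleted liver (adjusted p = 0.424) and by -0.36 in floxed liver (adjusted p = 0.196).

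Pmaip1 encodes NOXA, a target of p53 that binds MCL1 and hastens its breakdown. It gave 6.13, 5.95 and 6.31 in Stat3Δhc Mdr2-/- liver, 6.08, 5.84 and 6.10 in Stat3Fl/FlMdr2-/- liver, 5.84, 5.91 and 5.83 in Stat3Δhc liver and 5.87, 5.91 and 5.81 in Stat3Fl/Fl liver. The arrays without the Mdr2 knockout lay between 5.81 and 5.91, and array B was the lowest of each Mdr2-/- genotype. Like Bbc3 below, Pmaip1 lay near the filter, at percentiles of 45.2 to 53.5 of an array. The change with Mdr2 loss was 0.27 in Stat3-deleted liver (SE 0.10, 95% interval 0.05 to 0.49, adjusted p = 0.0839) and 0.14 in floxed liver (SE 0.10, adjusted p = 0.411). Without array B of Stat3Δhc Mdr2-/-, the lowest of its group, the first of these was 0.36 and passed the test (adjusted p = 0.0378). That was the 1 pass among 12 fits that left out an array, in which the adjusted p reached 0.279. Within the Y-linked pattern the change was 0.27 and did not pass (adjusted p = 0.116).

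Bbc3 encodes PUMA, a BH3-only protein induced by p53 and FOXO3 that binds every survival member. Its signal lay between the 40.8th and 53.6th percentile of each array, near the filter. It gave 5.72, 5.85 and 6.32 in Stat3Δhc Mdr2-/- liver, 5.72, 5.62 and 5.83 in Stat3Fl/FlMdr2-/- liver, 5.67, 5.82 and 5.56 in Stat3Δhc liver and 5.83, 5.98 and 5.56 in Stat3Fl/Fl liver. Array C of Stat3Δhc Mdr2-/- stood above the other 11 arrays, which overlapped between genotypes. The change with Mdr2 loss was 0.28 in Stat3-deleted liver (SE 0.15, adjusted p = 0.199) and -0.07 in floxed liver (SE 0.15, adjusted p = 0.819).

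**Figure D2:**
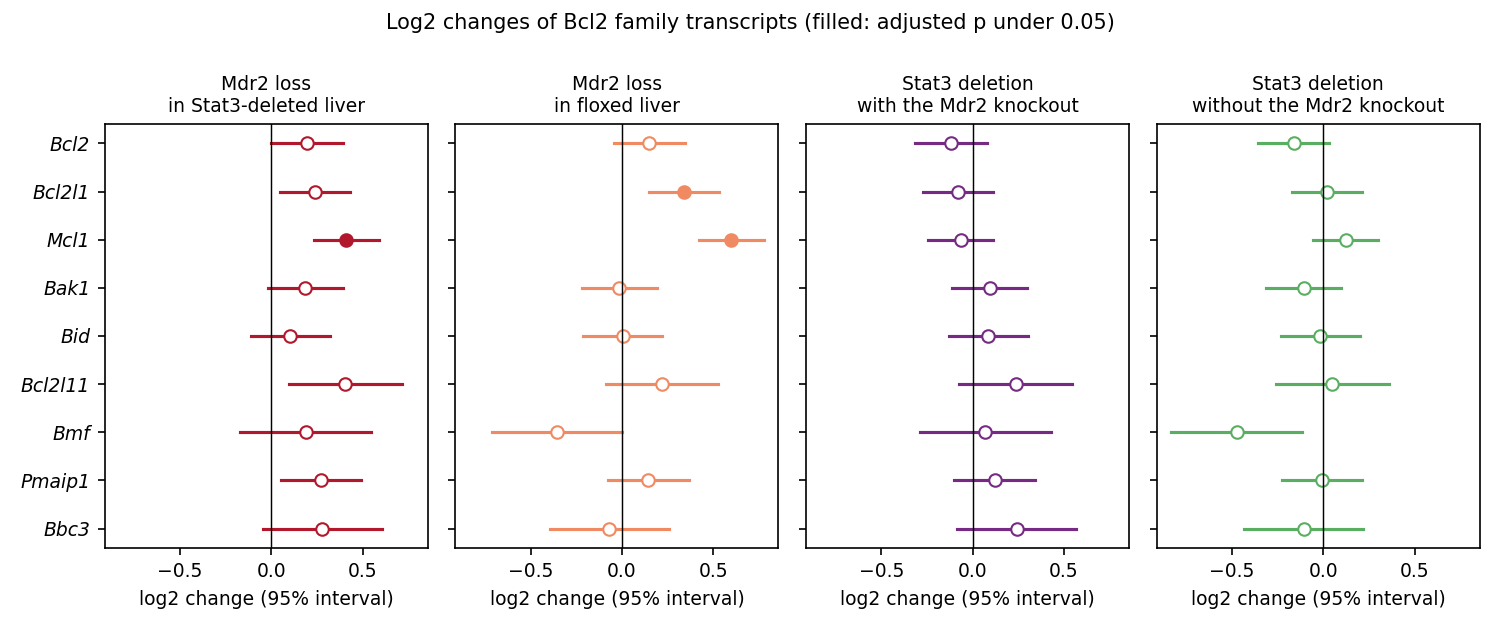
Log2 change of each measured member with its 95% interval under Mdr2 loss in Stat3-deleted and in floxed liver and under Stat3 deletion on either Mdr2 background, filled where the adjusted p was under 0.05. Mcl1 (0.41 and 0.60) and Bcl2l1 (0.34, floxed liver) are the filled points, and the 9 points of the first panel lie to the right of 0.

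Side by side, all 9 changes with Mdr2 loss were positive in Stat3-deleted liver, from 0.10 (Bid) to 0.41 (Mcl1), with a median of 0.24 against -0.02 over all genes tested. In floxed liver 6 were positive and 3 negative, with a median of 0.14 against a median that rounds to 0 over all genes. These comparisons share no arrays, but their difference passed the test for no member. Groups did not overlap, in the upward direction, for Mcl1, Bcl2l1, Bcl2l11 and Pmaip1 in Stat3-deleted liver, a pattern found in 14.9% of all genes. They did not overlap for Mcl1, Bcl2l1 and Bcl2 in floxed liver, found in 18.2% of all genes, and downward for Bmf, found in 15.1%. With Stat3 deletion without the Mdr2 knockout, groups did not overlap, downward, for Bcl2 and Bmf (10.8% of all genes).

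Averaging over the other gene used all 12 arrays for each effect, a contrast added after the data had been seen. With Mdr2 loss Mcl1 then rose by 0.51 (SE 0.06, adjusted p = 6.1e-05 by limma), Bcl2l1 by 0.29 (SE 0.06, adjusted p = 0.00462) and Bcl2l11 by 0.31 (SE 0.10, adjusted p = 0.0386). These 3 of 9 members stand against 24.6% of all genes called in the same contrast. Pmaip1 (0.21, adjusted p = 0.0522) and Bcl2 (0.17, adjusted p = 0.067) missed the threshold. For Stat3 deletion 0 of 9 members and 10.2% of all genes were called. Mcl1 changed by 0.03 (95% interval -0.10 to 0.16) and Bcl2l1 by -0.03 (95% interval -0.16 to 0.11) with Stat3 deletion, and Bcl2 by -0.14 (SE 0.06, adjusted p = 0.201), the single member with an unadjusted p under 0.05, against 24% of all genes. In this average the Xist pattern is still unevenly divided, with 4 of 6 Mdr2-/- arrays and 0 of 6 others.

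**Figure D3:**
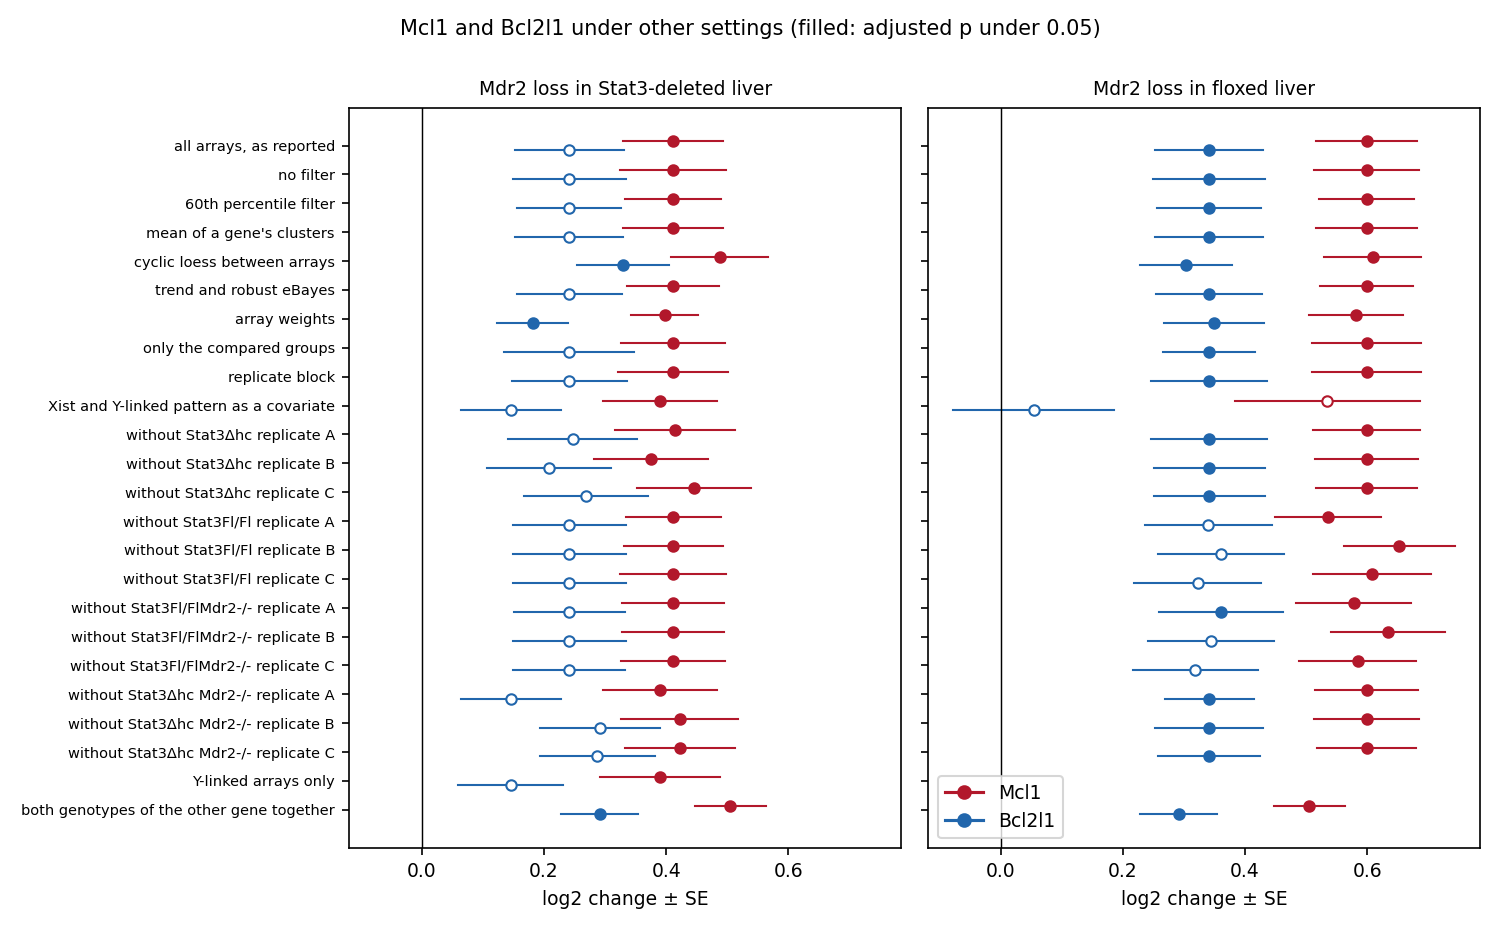
Log2 change (point) and SE (bar) of Mcl1 (red) and Bcl2l1 (blue) with Mdr2 loss in Stat3-deleted and in floxed liver, as reported and under each other setting, filled where the adjusted p was under 0.05. Mcl1 in Stat3-deleted liver stays between 0.37 and 0.51 and is filled under every setting drawn, whereas Bcl2l1 in floxed liver drops to 0.05 with the covariate.

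Of 16 further family genes listed, 13 were measured and 9 tested. Bok, a less studied relative of BAX and BAK, rose with Mdr2 loss in Stat3-deleted liver, and no other passed in any of the 5 comparisons as fitted on all arrays. This 1 of 9 stands against 6.9% of all genes that rose with Mdr2 loss in Stat3-deleted liver. Bok gave 7.31, 7.56 and 7.71 in Stat3Δhc Mdr2-/- liver against 6.99, 7.06 and 6.93 in Stat3Δhc liver, a rise of 0.53 (SE 0.12, adjusted p = 0.0109). Within the Y-linked pattern it was 0.64 (adjusted p = 0.00357), and there Hrk, a BH3-only gene, passed too (0.39, adjusted p = 0.0492). Among 15 apoptosome and caspase genes tested, Dffa, which encodes the inhibitor of the caspase-activated DNase, fell by 0.28 with Mdr2 loss in floxed liver (adjusted p = 0.0368), and the call was lost in 7 of 12 fits that left out an array. Apaf1, the scaffold of the apoptosome, fell by 0.49 with Stat3 deletion on the Mdr2-/- background (adjusted p = 0.0457), and its call was also lost in 7 of 12. No gene of that list rose in the fit as reported. Each fall is 1 of 15, against 5.65% of all genes that fell in the comparison of Dffa and 3.9% in that of Apaf1. With the pattern of Xist and Y-linked transcripts as a covariate both calls were lost. Apaf1 was then at -0.35 (adjusted p = 0.600) and Dffa at -0.34 (adjusted p = 0.422).

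Of 14 stress-responsive regulators upstream of BH3-only genes, 3 rose and 0 fell with Mdr2 loss in Stat3-deleted liver, and 4 rose and 0 fell in floxed liver. Over all genes, 6.9% rose and 10.5% fell in Stat3-deleted liver, and 7.12% rose and 5.65% fell in floxed liver. In Stat3-deleted liver 3 rose and 1 (Dusp1) fell within the Y-linked pattern, and 3 rose and 2 (Dusp1 and Atf4) fell with the covariate, with which 1 (Jun) rose and 0 fell in floxed liver. The list's median change was 0.14 in Stat3-deleted liver, against -0.02 over all genes, and 0.25 in floxed liver, against a median that rounds to 0. Jun, an AP-1 subunit activated by the stress kinase JNK, gave 8.47, 8.06 and 7.91 in Stat3Δhc Mdr2-/- liver, 8.89, 8.94 and 9.17 in Stat3Fl/FlMdr2-/- liver, 6.97, 7.19 and 7.51 in Stat3Δhc liver and 7.18, 7.21 and 7.35 in Stat3Fl/Fl liver. The 6 Mdr2-/- arrays lay above the 6 others, and those of Stat3Δhc Mdr2-/- below those of Stat3Fl/FlMdr2-/-. Jun rose by 0.92 (adjusted p = 0.00187) in Stat3-deleted liver and by 1.75 (adjusted p = 1.56e-05) in floxed liver, and both calls held in all 12 fits that left out an array and with the covariate (0.76 and 1.27, adjusted p = 0.00621 and 0.03). With Stat3 deletion on the Mdr2-/- background Jun fell by 0.86 (adjusted p = 0.00903), a call lost with the covariate (-0.53, adjusted p = 0.315). The rise in Stat3-deleted liver minus that in floxed liver was -0.83 (SE 0.22, adjusted p = 0.207) and was not called.

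The FOXO genes were among those called in floxed liver. Foxo1 rose by 0.83 (adjusted p = 0.0122) and Foxo3 by 0.41 (adjusted p = 0.00913) with Mdr2 loss. In Stat3-deleted liver Foxo1 changed by 0.18 (adjusted p = 0.514). Dusp1, a phosphatase that switches off JNK and p38, rose by 0.65 in floxed liver (adjusted p = 0.013) and changed by -0.40 in Stat3-deleted liver (adjusted p = 0.0839). The changes in Stat3-deleted liver minus those in floxed liver were -0.65 for Foxo1 (adjusted p = 0.264) and -1.04 for Dusp1 (adjusted p = 0.0907), so neither difference was called. With the covariate the floxed calls of all 3 were lost. The change was then 0.90 (SE 0.35, adjusted p = 0.366) for Foxo1 and 0.39 (SE 0.16, adjusted p = 0.399) for Foxo3, about as large as before with a wider error, and 0.27 (SE 0.24, adjusted p = 0.716) for Dusp1. In Stat3-deleted liver Dusp1 passed as a fall with the covariate (-0.52, adjusted p = 0.0354) and within the Y-linked pattern (-0.52, adjusted p = 0.0483). Trib3, a stress-induced pseudokinase, rose by 0.63 (adjusted p = 0.0183) and Egr1, an immediate early factor, by 0.60 (adjusted p = 0.0388) in Stat3-deleted liver. Within the Y-linked pattern Trib3 kept its call (0.64, adjusted p = 0.0377) and Egr1 did not (0.48, adjusted p = 0.118). Without the Mdr2 knockout, Dusp1 rose by 0.77 (adjusted p = 0.0184) and Foxo3 by 0.37 (adjusted p = 0.0474) with Stat3 deletion, 2 of the 14, with 0 falling. Over all genes, 1.51% rose and 1.07% fell with Stat3 deletion without the knockout. Dusp1 kept that call in 8 of 12 fits that left out an array, and Foxo3 in 3 of 12.

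Genes of the p53 response, which induces Pmaip1 and Bbc3, were called in both directions. With Mdr2 loss 2 of 15 tested rose and 4 fell in Stat3-deleted liver, and 2 rose and 1 fell in floxed liver. These counts stand against 17.4% and 12.8% of all genes called in either direction, in the same order. Tnfrsf10b, the mouse receptor for the death ligand TRAIL, rose by 0.68 (adjusted p = 0.0021) in Stat3-deleted liver. Btg2, an antiproliferative gene, rose by 0.64 there (adjusted p = 0.00727) and by 0.51 in floxed liver (adjusted p = 0.0266). Zmat3 fell by 0.46 (adjusted p = 0.0128), Plk2 by 0.49 (adjusted p = 0.0265), Perp by 0.37 (adjusted p = 0.0298) and Gadd45a by 0.63 (adjusted p = 0.0495) in Stat3-deleted liver. Trp53inp1, which promotes p53 activity, rose by 1.20 in floxed liver (adjusted p = 0.00055). It also rose by 0.69 with Stat3 deletion without the Mdr2 knockout (adjusted p = 0.0434), a call lost in 7 of 12 fits that left out an array. Gadd45a fell by 0.71 in floxed liver too (adjusted p = 0.0377), and lost that call in 5 of 12 such fits, as it lost the call in Stat3-deleted liver in 8 of 12. With the covariate 2 of the 15 rose and 3 fell in Stat3-deleted liver, and 0 passed in floxed liver. There Trp53inp1 was at 0.99 (SE 0.29) and Gadd45a at -0.89 (SE 0.38), whereas Btg2 was at -0.02 (SE 0.17) and no longer kept its direction.

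Of 11 tested survival genes known from other tissues as STAT3 targets, 5 rose and 0 fell with Mdr2 loss in Stat3-deleted liver, and 3 rose and 1 fell in floxed liver. Over all genes 6.9% rose in Stat3-deleted liver and 7.12% in floxed liver. Myc gave 6.89, 6.93 and 6.86 in Stat3Δhc Mdr2-/- liver, 6.95, 7.87 and 6.98 in Stat3Fl/FlMdr2-/- liver, 5.76, 5.85 and 5.92 in Stat3Δhc liver and 6.46, 6.26 and 6.22 in Stat3Fl/Fl liver. The 6 Mdr2-/- arrays lay above the 6 others, with array B of Stat3Fl/FlMdr2-/- far above the rest. Myc rose by 1.05 (adjusted p = 0.00267) in Stat3-deleted liver and by 0.95 (adjusted p = 0.00561) in floxed liver. Ccnd1, which drives entry into the cell cycle, rose by 0.66 (adjusted p = 0.0021) and 0.38 (adjusted p = 0.0443) in the same order, and Bcl3, an NF-kappaB cofactor, by 0.57 (adjusted p = 0.0108) and 0.46 (adjusted p = 0.0355). Junb (0.41, adjusted p = 0.0357) and Socs3, the feedback inhibitor of STAT3 (0.56, adjusted p = 0.0367), rose in Stat3-deleted liver, and Vegfa fell by 0.36 in floxed liver (adjusted p = 0.0387). Within the Y-linked pattern Myc, Ccnd1 and Bcl3 passed in Stat3-deleted liver, and Junb and Socs3 did not (adjusted p = 0.0815 and 0.0522). The floxed calls of Ccnd1, Bcl3 and Vegfa were lost in 8, 5 and 6 of 12 fits that left out an array, and those of Junb and Socs3 in Stat3-deleted liver in 5 and 4. With the covariate 0 of 11 passed in floxed liver, where Myc was at 0.95 (SE 0.35), Vegfa at -0.45 (SE 0.19), Ccnd1 at 0.29 (SE 0.21) and Bcl3 at 0.25 (SE 0.23). In Stat3-deleted liver 3 of 11 rose and 0 fell, both with the covariate and within the Y-linked pattern, which give the same changes there. Stat3 deletion called 0 of 11 on the Mdr2-/- background. Without it, Ccnd1 fell by 0.50 (adjusted p = 0.0376), a call lost in 7 of 12 fits that left out an array.

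**Figure D4:**
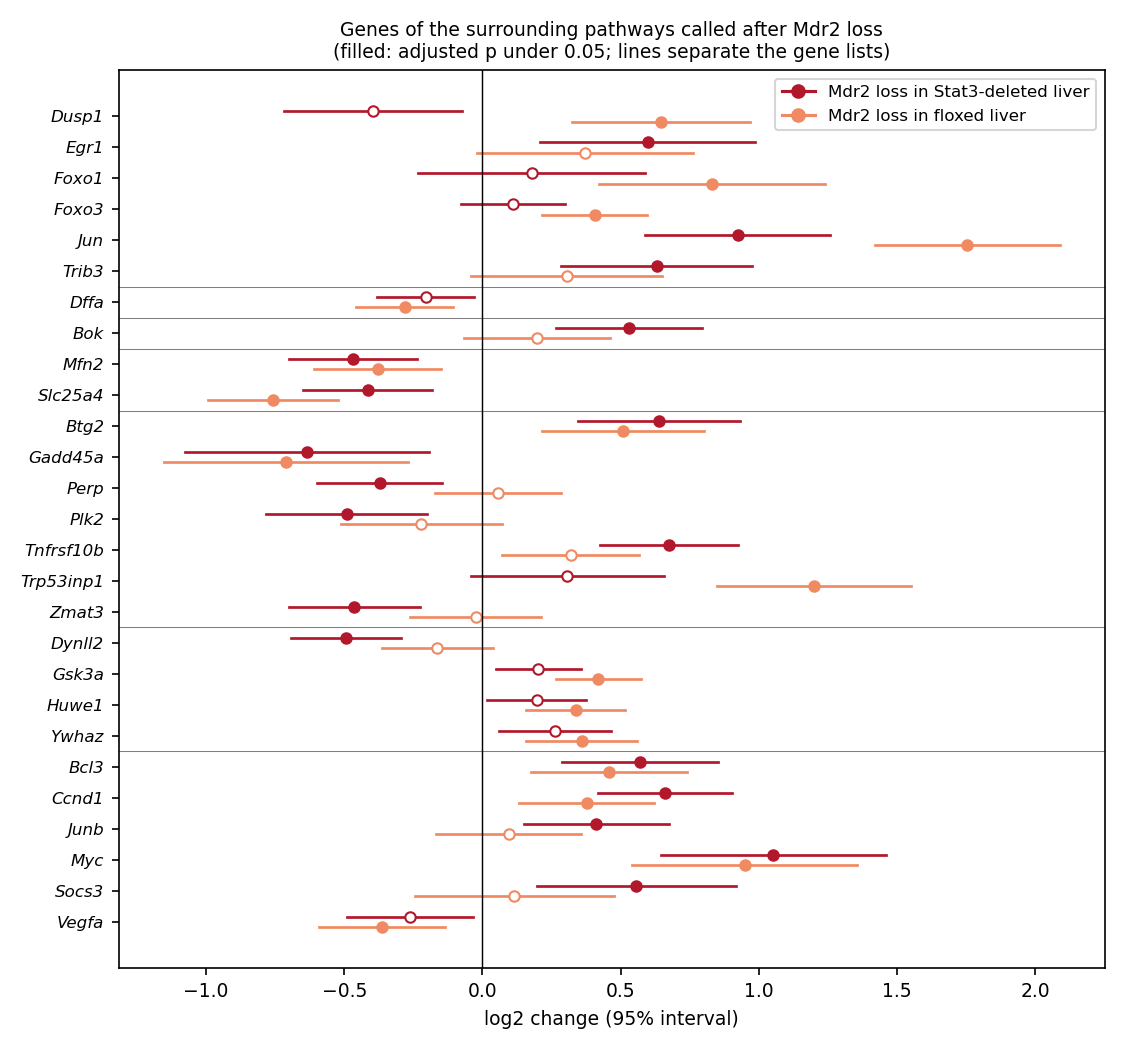
Log2 change with its 95% interval for genes of the pathway lists that were called with Mdr2 loss in Stat3-deleted liver (dark) or in floxed liver (light), filled where called and grouped by list. Jun (0.92 and 1.75) and Myc (1.05 and 0.95) show the largest rises called in both, and Gadd45a falls in both.

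Regulators that act on MCL1 and BH3-only proteins after translation were called 3 times in 12 with Mdr2 loss in floxed liver, all as rises, against 7.12% of all genes that rose. They were Gsk3a, a kinase that marks MCL1 for breakdown, with a rise of 0.42 (adjusted p = 0.00231), Huwe1, a ubiquitin ligase for MCL1, with 0.34 (adjusted p = 0.0174), and Ywhaz, a 14-3-3 protein that holds phosphorylated BAD, with 0.36 (adjusted p = 0.0232). With the covariate none of the 3 passed, with Gsk3a at 0.34 (SE 0.13, adjusted p = 0.333), Huwe1 at 0.18 (SE 0.14, adjusted p = 0.676) and Ywhaz at 0.24 (SE 0.17, adjusted p = 0.639). In Stat3-deleted liver 1 of 12, Dynll2, the dynein light chain that binds BMF, fell by 0.49 (adjusted p = 0.00352), against 10.5% of all genes that fell. Btrc, part of a ubiquitin ligase that targets MCL1, fell by 0.42 with Stat3 deletion on the Mdr2-/- background (adjusted p = 0.0238). With the covariate the change was -0.53 (SE 0.13) and missed the threshold (adjusted p = 0.134).

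Among 12 mitochondrial partners of the family, 2 fell and 0 rose with Mdr2 loss in either Stat3 genotype. Over all genes 10.5% fell in Stat3-deleted liver and 5.65% in floxed liver. In Stat3-deleted liver 4 fell within the Y-linked pattern (Vdac2 and Opa1 beside the 2) and 5 with the covariate (Vdac3 as well), and in floxed liver 1 fell with the covariate (Slc25a4). Slc25a4, the muscle form of the adenine nucleotide carrier, fell by 0.42 (adjusted p = 0.021) in Stat3-deleted liver and by 0.76 (adjusted p = 0.000785) in floxed liver. Mfn2, a mitochondrial fusion protein, fell by 0.47 (adjusted p = 0.0105) and 0.38 (adjusted p = 0.0339) in the same order. Its floxed call was lost in 5 of 12 fits that left out an array and with the covariate (-0.55, adjusted p = 0.284), and the Stat3-deleted call of Slc25a4 in 3 of 12. Skeletal muscle markers fell in both of these comparisons, with a median of -3.15 in Stat3-deleted liver and -3.59 in floxed liver, and their part in these changes was not tested. Without the Mdr2 knockout, Mfn2 rose by 0.46 with Stat3 deletion (adjusted p = 0.043), a call lost in 7 of 12 fits that left out an array.

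Across the 12 arrays Mcl1 and Bcl2l1 were the most alike pair of members. Pearson's r was 0.901 between Mcl1 and Bcl2l1, 0.707 between Bcl2l11 and Pmaip1 and 0.707 between Pmaip1 and Bbc3, and the lowest of all 36 pairs was -0.326, between Bcl2l1 and Bmf. These values describe arrays that share genotypes, the Xist pattern and tissue markers, and carry no p. Each member was also compared with the other tested genes, passing over placeholder symbols such as Gm or Rik names. Those most like Mcl1 were Slc4a4 (r = 0.986), a bicarbonate transporter, Ctsb (0.98), the lysosomal protease cathepsin B, and Rps6kc1 (0.974). Those most like Bcl2l1 were Gdpd3 (0.963), Adamts12 (0.957) and Creb3l2 (0.957), and those most like Bcl2l11 were Pwwp2b (0.944), Depp1 (0.932) and Igfbp1 (0.918). For Bcl2 the closest gene was Cfl1 (0.935), for Bak1 Bcl10 (0.878), for Bmf Obsl1 (0.896) and for Bbc3 Rtbdn (0.969). For Bid and Pmaip1 the closest were olfactory receptor genes, Olfr444 (0.841) and Olfr239 (0.966).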

How the data were processed

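RNA of whole liver was hybridised to 12 arrays (Affymetrix, mouse Gene 1.0 ST). The authors deposited 1 log2 value per transcript cluster and array, and the submitters' processing notes name RMA without a version. The probe-level steps behind them are not given in the sources used here.

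Of 35556 transcript clusters, 21789 name 1 gene in the platform annotation used, 1621 several and 12146 none. Each gene was taken by its cluster of highest mean, and tested if its signal passed the 40th percentile of 3 or more arrays. One limma 3.58.1 model (R 4.3.3, lmFit and eBayes) of all 12 arrays with 4 groups and 8 residual degrees of freedom gave every comparison. P-values were Benjamini-Hochberg adjusted at 0.05. Confidence intervals are 95%. Precision is limited by having 3 arrays for a genotype.

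The named genes are the 10 members, Stat3, Abcb4, up to 4 called genes per pathway list and comparison with the smallest adjusted p, and the 3 tested genes that correlate best with a member. Placeholder symbols, such as Gm or Rik names, were passed over in that ranking. Perp, Socs3, Atf4, Hrk, Opa1, Vdac2, Vdac3 and the named cell type markers lie outside this rule and were named after their values were seen. The members and lists were chosen with earlier results of these data known.

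The letters A, B and C did not pair the arrays: deviations of 18 same-letter pairs correlated at -0.41 to 0.37 (median -0.06), with 4 above 0.1. The alternatives were other filters, the mean of a gene's clusters, array weights, cyclic loess, a fit of only the compared groups, eBayes with trend and robust settings, a replicate block, the Xist and Y-linked pattern as a covariate, and leaving out each array. Fits of the 8 Y-linked arrays alone and averages over the other gene's genotypes were added after seeing the data. Grouping by source name was not run, since it only exchanges the Mdr2-/- genotypes against the Stat3 signal. The model was tested on simulated data. Plots came from matplotlib 3.10.9 under Python 3.11.15.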

Additional observations from a re-analysis of the deposited data

How the results depend on the processing

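Of 980 member results recomputed under an alternative, 964 kept their side of the threshold, 7 lost a call, 9 gained one and 0 of the called values changed sign. Another 40 uncalled values took the other sign. Most of the 964 were uncalled results that stayed uncalled. The calls as reported held in 23 of 23 alternatives for Mcl1 in Stat3-deleted liver. In floxed liver they held in 21 of 22 for Mcl1 and 16 of 22 for Bcl2l1. With array weights (1 array weighed 9.01, another 0.26) 3 members were called with Mdr2 loss in Stat3-deleted liver (Bak1 at 0.20, adjusted p = 0.0213, and Bcl2l1 at 0.18, adjusted p = 0.0246, beside Mcl1) and 1 with Stat3 deletion without the Mdr2 knockout (Bmf at -0.35, adjusted p = 0.0452). Of 13977 genes tested, array weights called 5830 for the first of these comparisons and 2955 for the second. With Mdr2 loss in Stat3-deleted liver, cyclic loess called 2 members and 2273 of 13972 genes. The average over both Stat3 genotypes called 3 members and 3438 of 13977 genes. In Stat3-deleted liver the fit as reported called 1 member and 2431 genes. With the Xist and Y-linked pattern as a covariate 0 members passed with Mdr2 loss in floxed liver. Leaving out an array left 1 to 2 members called in either Mdr2 comparison and 0 in the Stat3 comparisons and their difference. No paired analysis was called for, since the letters do not pair the arrays. With the letter as a replicate block, 473, 237 and 3 genes were called for Stat3 deletion with the Mdr2 knockout, without it and for their difference, against 806, 361 and 10 as reported, and the counts of members did not move.

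Counts over all genes moved more. For Stat3 deletion with the Mdr2 knockout they were 2298 with array weights, 230 with only the compared groups, 37 with the covariate, 1421 averaged over both Mdr2 genotypes and 302 to 1475 without 1 array. For Stat3 deletion without the knockout they were 2955 with array weights, 234 in the Y-linked arrays, 1421 averaged and 69 to 753 without 1 array. For the difference they were 6 without a filter, 23 with trend and robust eBayes, 567 with array weights, 6 with the covariate and 0 to 64 without 1 array. For Mdr2 loss in Stat3-deleted liver they were 5830 with array weights, 1541 with only the compared groups and 1156 to 2613 without 1 array, against 2431 as reported. For Mdr2 loss in floxed liver they were 102 with the covariate, 3438 averaged and 1105 to 2129 without 1 array, against 1785 as reported. Under cyclic loess 466 of 910 called genes were higher with Stat3 deletion on the Mdr2-/- background, against 261 of 806 as reported, and 4 of 11 against 2 of 10 for the difference. The causes of these shifts were not tested.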
